A study of Mus musculus with 8 samples.

Results

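The Sall genes encode the 4 mouse members of a family of nuclear zinc finger proteins, Sall1, Sall2, Sall3 and Sall4. All 4 were found by their gene name in the count table of 55421 genes, and all 4 were among the 20588 genes with enough counts to be tested. Sall3 was chosen by its own readout in these data, a change under treatment that differed between the genotypes, and the other 3 are its paralogs. The values of Sall3 are therefore given as a description with no test, whereas Sall1, Sall2 and Sall4 were tested.

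RNA-seq was performed in primary cultures of mouse spermatogonia (SSC culture) derived from neonatal testes on a C57BL/6XDBA/2 F1 hybrid background, kept with N2, bFGF and GDNF on mouse embryonic fibroblast feeders. The cultures were labelled Stra8KO, for the retinoic acid target and meiotic gatekeeper Stra8, or Spo11KO, for the catalyst of meiotic DNA breakage. Each genotype was kept as vehicle control (Veh) or received nutrient restriction together with retinoic acid (NRRA), with 2 libraries in each of the 4 groups. No wild-type culture was analysed here, so every comparison lies between 2 mutant genotypes or between treatments of 1 of them. The study describes its sequencing replicates as biologically independent, and the labels only number them. The labels do not say how many cultures were derived for each genotype, so genotype and culture line cannot be told apart. The common coefficient of variation between libraries of a group, beyond counting noise, was 3.39%. The p-values measure differences against that spread and not against a spread between separately derived culture lines.

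Library totals ran from 20960794 to 27038868 counts. Stra8 itself had 0 and 2 counts in the Stra8KO Veh libraries, 169 and 170 in Stra8KO NRRA, and 12604 and 16191 in the NRRA libraries labelled Spo11KO. Spo11 had 31 to 68 counts in the 4 Stra8KO libraries and 72 to 148 in the 4 labelled Spo11KO, so its counts do not check that label. All 8 pan-germ genes (Ddx4, Dazl and the like) had more than 3 counts in every library. Their summed share of all counts was 0.0671 to 0.0677% in Stra8KO Veh, 0.0775 to 0.0814% in Stra8KO NRRA, 0.150 to 0.153% in Spo11KO Veh and 0.181 to 0.186% in Spo11KO NRRA. The 16 fibroblast genes, also above 3 counts in every library, took 2.49 to 2.55%, 3.97 to 4.0%, 1.43% in both libraries, and 2.33 to 2.43% in the same order. The cultures labelled Spo11KO thus held more germ and less fibroblast RNA than the Stra8KO cultures. In such bulk samples, fewer cells of a type and less RNA per cell cannot be told apart.

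SALL proteins are the vertebrate relatives of Drosophila spalt. They carry pairs of zinc fingers along the protein and act largely as transcriptional repressors, for which a short stretch at the very N-terminus recruits the NuRD complex, a nucleosome remodelling and histone deacetylase assembly. SALL4 is known for its role in pluripotent cells and in undifferentiated spermatogonia, where it works beside the zinc finger repressor PLZF (encoded by Zbtb16). SALL1 is best known from kidney development, and human SALL1 and SALL4 are mutated in malformation syndromes of limb, ear and other organs.

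The start of the coding sequence is shown because it encodes this NuRD-recruiting stretch, the feature that ties the family to the complex described further on. The first 36 coding bases of Sall2 and Sall4, the pair with the lowest identity over the whole protein, are printed 5′ to 3′ on the coding strand, with capitals at the 24 bases that both share. They were read from the GRCm38 genome with GENCODE gene models, at chr14:52328140-52328175 for Sall2 and chr2:168766994-168767029 for Sall4, each on the minus strand.
Sall2: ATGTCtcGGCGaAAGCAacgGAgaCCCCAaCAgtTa
Sall4: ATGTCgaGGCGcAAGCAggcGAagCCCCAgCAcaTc
Of the 12 residues encoded there, 8 were identical between Sall2 and Sall4. Over the whole aligned protein, the identity was 58.5% between Sall1 and Sall3, the closest pair of the 6, 49.0% between Sall1 and Sall4, 47.7% between Sall3 and Sall4, 42.4% between Sall2 and Sall3, 40.5% between Sall1 and Sall2, and 35.3% between Sall2 and Sall4.

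These differences also bear on how far reads can be told apart. No stretch of 50 bases was shared between the annotated transcripts of any 2 members, and stretches of 25 bases were shared only between Sall1 and Sall3, at 14 positions, and between Sall3 and Sall4, at 3 positions. Sall4 overlaps the antisense gene Gm14261 over 526 exonic bases, and the strand setting of the counting is not given in the sources used here. Gm14261 had 38 to 259 counts per library against 1476 to 6047 for Sall4, and its counts could include reads of Sall4 or the reverse.

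Each Sall gene had a level pattern of its own over the 4 groups (the plot of levels by library). Levels are counts scaled to a library of 1000000 (CPM) after adjustment by the trimmed mean of M-values (TMM), a normalization that assumes most genes do not change. Sall4, the spermatogonial member, had 73.3 and 74.3 CPM in Stra8KO Veh, 150.4 and 155 CPM in Stra8KO NRRA, 183 and 173 CPM in Spo11KO Veh, and 203 and 206 CPM in Spo11KO NRRA. The libraries of the 4 groups did not overlap, and both Stra8KO Veh libraries lay below all the others.

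Sall1, the closest paralog of Sall3, had 54.6 and 50.8 CPM in Stra8KO Veh, 60.3 and 61.8 CPM in Stra8KO NRRA, 107 and 112 CPM in Spo11KO Veh, and 23.9 and 26.1 CPM in Spo11KO NRRA. It was thus highest in Spo11KO Veh and lowest after NRRA in the same genotype, with the Stra8KO groups between them. Sall3 had 66.8 and 62.4 CPM in Stra8KO Veh, 74.3 and 76.0 CPM in Stra8KO NRRA, 100.2 and 94.9 CPM in Spo11KO Veh, and 3.2 and 3.45 CPM in Spo11KO NRRA. The order of its 4 groups was that of Sall1, and its lowest group still held 83 and 101 counts, well above a floor of 3 counts.

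Sall2, the member least like the others in sequence, had 29.4 and 30.1 CPM in Stra8KO Veh, 25.8 and 27.3 CPM in Stra8KO NRRA, 14.1 and 16.1 CPM in Spo11KO Veh, and 13.2 and 12.6 CPM in Spo11KO NRRA. Its levels split by genotype, with both treatments of 1 genotype close together.

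**Figure D1:**
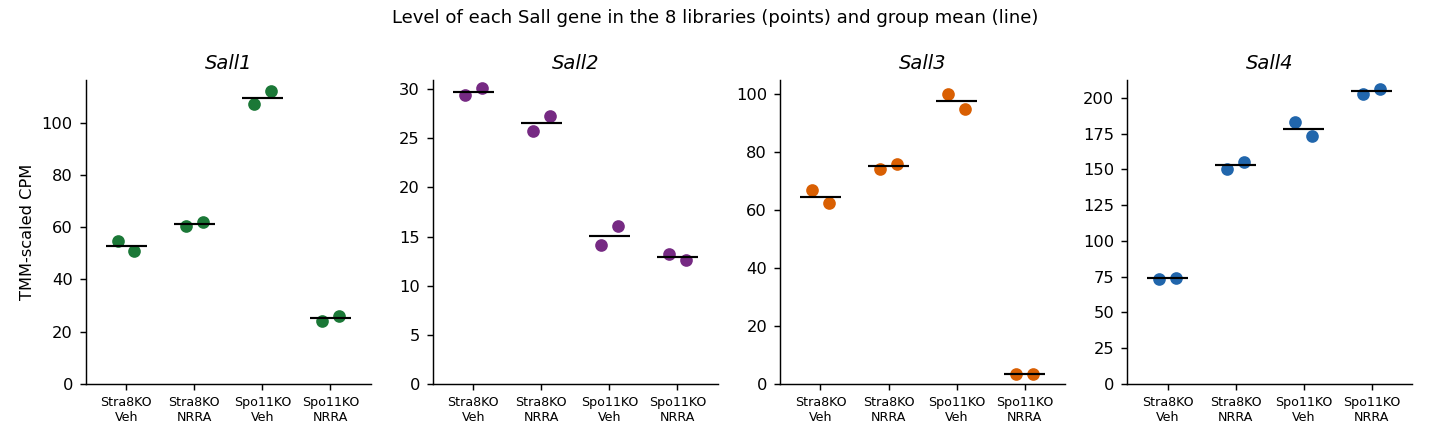
TMM-scaled CPM of Sall1, Sall2, Sall3 and Sall4 (vertical axes, each from 0) in the 4 groups, with a point for each of 2 libraries and a line at the group mean. Sall1 and Sall3 drop in Spo11KO NRRA, to 25 and 3.32 CPM on average, while Sall4 is lowest in Stra8KO Veh, at 73.8 CPM, and Sall2 splits by genotype.

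To compare levels between genes, counts were divided by the length of the annotated exons, 5265 bases for Sall1, 5433 for Sall2, 7481 for Sall3 and 5536 for Sall4. Sall4 was the most abundant member in every group, at 13.3 ± 0.136, 27.5 ± 0.534, 32.1 ± 1.22 and 37.0 ± 0.422 CPM per kilobase (SD, n = 2) in Stra8KO Veh, Stra8KO NRRA, Spo11KO Veh and Spo11KO NRRA. The family sum was 37.5 ± 0.636, 54.1 ± 1.13, 68.8 ± 0.778 and 44.5 ± 0.636 CPM per kilobase (SD, n = 2) in the same order. The sum was thus higher in value after NRRA in Stra8KO and lower in value after NRRA in the cultures labelled Spo11KO, and it was not tested.

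The makeup of the family sum also differed between groups (the bars of family shares). Sall4 made up 35.6% ± 1.02 of the sum in Stra8KO Veh and 50.9% ± 0.0524 in Stra8KO NRRA (SD, n = 2). In the cultures labelled Spo11KO it made up 46.7% ± 1.27 in Veh and 83% ± 0.296 in NRRA (SD, n = 2). Sall3 made up 23.1% ± 0.669, 18.6% ± 0.0754, 19.0% ± 0.528 and 0.997% ± 0.0367 over the 4 groups in the order above (SD, n = 2). Spo11KO NRRA thus held a family sum that was mostly Sall4, with 10.7% ± 0.518 of Sall1 and 5.34% ± 0.259 of Sall2 beside it (SD, n = 2). Such shares within a library do not depend on the scaling between libraries.

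**Figure D2:**
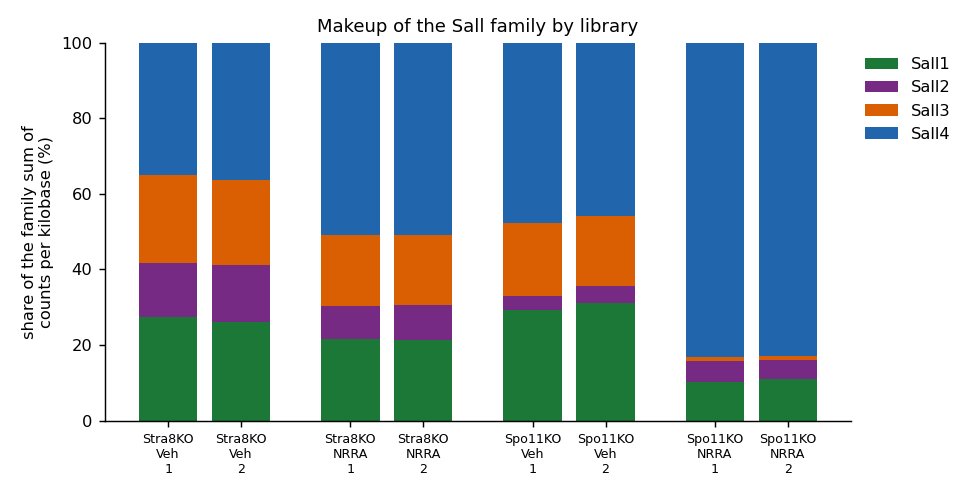
Share of each Sall gene in the family sum of counts per kilobase of annotated exon (vertical axis, in %) in each of the 8 libraries, in 4 groups of 2. Sall4 takes 83% on average in Spo11KO NRRA against 35.6 to 50.9% in the other groups, and Sall3 takes 0.997% there against 18.6 to 23.1%.

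In Stra8KO, NRRA raised Sall4, with smaller differences for the other members. Sall4 rose 2.07-fold (log2 fold change 1.05, SE 0.0455, adjusted p = 2.36e-25, edgeR quasi-likelihood test with Benjamini-Hochberg adjustment over all tested genes, as throughout). Sall1 rose 1.16-fold (0.21 on the log2 scale, SE 0.0588, adjusted p = 0.0028), but this direction turned when libraries were scaled by the summed counts of the pan-germ genes (-0.03, adjusted p = 0.757), and the call was lost without Stra8KO Veh replicate 2 (0.16, adjusted p = 0.0872). Sall2 was not called at -0.16 (SE 0.0809, adjusted p = 0.107), although it was called lower with the pan-germ scaling (-0.40, adjusted p = 0.000228). Sall3 had a log2 fold change of 0.22 (SE 0.0557), or -0.02 with the pan-germ scaling. That scaling moved the median of all tested genes to -0.22, and 5 of the 8 pan-germ genes were themselves called higher in this comparison. Thus 2 of the 3 tested paralogs were called, both higher, where 41.9% of all tested genes were called in this comparison.

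In the cultures labelled Spo11KO, NRRA lowered Sall1 to 22.8% of its Veh level. Its log2 fold change was -2.13 (SE 0.059, adjusted p = 2.1e-33), and 1.69% of all tested genes had a lower value. Sall3 stood at 3.41% of its Veh level, a log2 fold change of -4.87 (SE 0.0828), which enters the interaction it was chosen on. Sall4 rose only 1.15-fold (0.20 on the log2 scale, SE 0.0407, adjusted p = 3.84e-05), and it was not called with the pan-germ scaling (0.02, adjusted p = 0.774). That scaling moved the median of all tested genes to -0.17, and 6 of the 8 pan-germ genes were themselves called higher in this comparison. Sall2 was called lower at -0.23 (SE 0.0938, adjusted p = 0.0407). That call was lost with total counts (-0.13, adjusted p = 0.24), with the DESeq2 Wald test (adjusted p = 0.134), and without Spo11KO Veh replicate 2 (-0.14, adjusted p = 0.351). It was also lost without either NRRA library of that genotype (adjusted p = 0.0523 and 0.151) or either Stra8KO Veh library (adjusted p = 0.0511 and 0.051). All 3 tested paralogs were called, 1 higher and 2 lower, where 49.9% of all tested genes were called.

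Whether the NRRA effect differed between the genotypes was tested as an interaction, the log2 fold change in Stra8KO minus that in the cultures labelled Spo11KO. Sall1 had an interaction of 2.34 (SE 0.0836, adjusted p = 1.17e-27), and its 2 effects had opposite signs under TMM scaling. Sall4 had an interaction of 0.85 (SE 0.0611, adjusted p = 4.63e-16), from a larger rise in Stra8KO. Both interactions stayed above 0 and past the threshold under all 3 other scalings, at 2.25 to 2.31 for Sall1 and 0.75 to 0.81 for Sall4. Sall2 was not called, at 0.06 (SE 0.124, adjusted p = 0.774). Of the 3 tested paralogs, 2 had a called interaction, against 25.1% of all tested genes. The interaction of Sall3, 5.09 (SE 0.104), was the 15th highest of the 20588 and is the value it was chosen on.

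**Figure D3:**
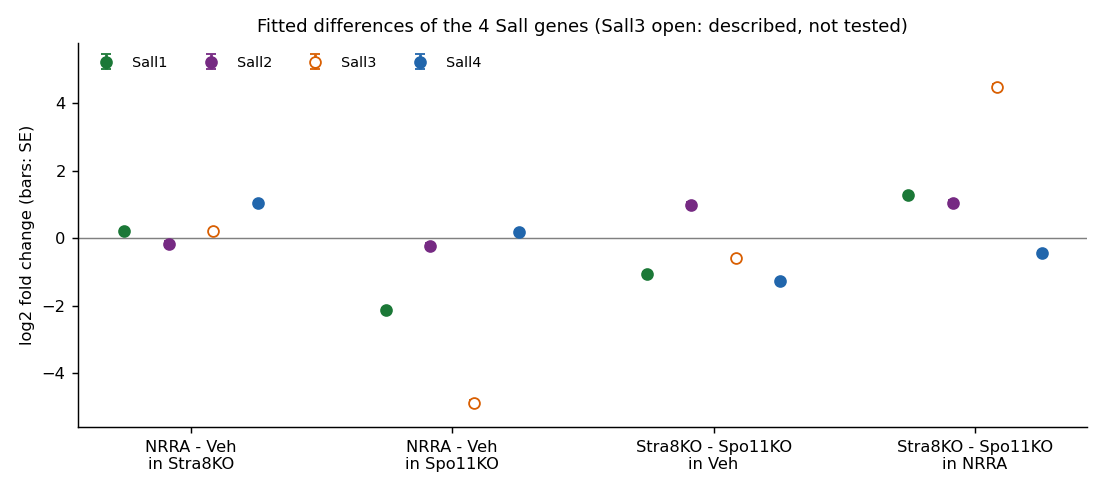
Log2 fold change of each Sall gene (vertical axis) for NRRA against Veh in each genotype and for Stra8KO against Spo11KO in each treatment, with bars for the SE, most of them smaller than the points. In Spo11KO, Sall1 (-2.13) and Sall3 (-4.87, open symbols, described with no test) lie far below Sall2 (-0.23) and Sall4 (0.20).

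In Veh, where no treatment had been given, the genotypes already differed in all 3 tested paralogs, and 62.3% of all tested genes were called. Sall1 was lower in Stra8KO at -1.05 (SE 0.0554, adjusted p = 3.53e-22) and Sall4 was lower at -1.27 (SE 0.0449, adjusted p = 8.53e-29). Sall2 was higher in Stra8KO, 1.97-fold (0.98 on the log2 scale, SE 0.0865, adjusted p = 4.73e-14). Sall3 had a value of -0.59 (SE 0.0541). The marker genes of the cultures differed between the genotypes as well. All 8 pan-germ genes were called lower in Stra8KO Veh (median -0.98), and all 16 fibroblast genes were called higher (median 0.90). With the pan-germ scaling, the difference of Sall1 came to 0 (adjusted p = 0.957), that of Sall4 to -0.21 (adjusted p = 0.000692), that of Sall3 to 0.46 and that of Sall2 to 2.03 (adjusted p = 2.97e-19). The median of all tested genes moved to 1.06 with that scaling. The part of germ and fibroblast content in the differences was not tested further.

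After NRRA, the genotypes again differed in all 3 tested paralogs, where 64.0% of all tested genes were called. Sall1 was 2.44-fold higher in Stra8KO (1.29 on the log2 scale, SE 0.0625, adjusted p = 1.42e-23), against its lower level there in Veh. Sall2 was 2.06-fold higher (1.04, SE 0.0875, adjusted p = 7.54e-15), close to its difference in Veh. Sall4 was lower in Stra8KO at -0.42 (SE 0.0414, adjusted p = 9.13e-13), but it was called higher there with the pan-germ scaling (0.58, adjusted p = 7.46e-12). That scaling moved the median of all tested genes to 1.06, above the value of Sall4. Sall3 had a value of 4.49 (SE 0.0856). All 8 pan-germ genes were again called lower (median -1.07) and all 16 fibroblast genes higher (median 0.96) in Stra8KO.

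Counts of each member per 100 pan-germ counts give the same comparison within a library. With NRRA, 5 of the 8 pan-germ genes were called higher in Stra8KO and 6 of 8 in Spo11KO, and no pan-germ gene was called lower. Among all tested genes, 41.9% and 49.9% were called. Piwil2 rose 1.59-fold in Stra8KO and 1.55-fold in Spo11KO. Whether the RNA of these genes rose with germ cell number or per cell was not tested, and this measure carries both. In Stra8KO, Sall1 had 7.67 and 7.11 such counts with Veh and 6.98 and 7.55 with NRRA, whereas in Spo11KO it had 7.32 and 7.44 with Veh and 1.45 and 1.52 with NRRA. The first 3 groups overlapped, and Spo11KO NRRA alone stood apart from them. Sall3 stood at 9.38 and 8.74 (Veh) and 8.6 and 9.27 (NRRA) in Stra8KO, and at 6.86 and 6.3 (Veh) and 0.194 and 0.201 (NRRA) in Spo11KO.

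For Sall4 the group that stood apart was another one. Per 100 pan-germ counts, Sall4 had 10.3 and 10.4 counts with Veh and 17.4 and 18.9 with NRRA in Stra8KO, and 12.5 and 11.5 with Veh and 12.3 and 12 with NRRA in Spo11KO. On this measure Stra8KO NRRA was the highest group, and both groups labelled Spo11KO overlapped. Sall2 was the member whose levels followed the fibroblast genes between genotypes, with 11.1 and 11.2 counts per 10000 fibroblast counts for Stra8KO and 10.1 and 11.5 for Spo11KO in Veh. After NRRA the values were 6.08 and 6.51 for Stra8KO and 5.98 and 5.89 for Spo11KO, while the summed fibroblast share was higher after NRRA in both genotypes. The fibroblast genes did not move together, as NRRA raised 11 of the 16 and lowered 5 in each genotype. Col1a1 rose 2.76-fold in Stra8KO, for example, whereas Vim fell to 0.567-fold. The lower Sall2 values per fibroblast count thus also carry the changes of these genes. The cell type that expresses each Sall gene was not measured in these libraries.

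**Figure D4:**
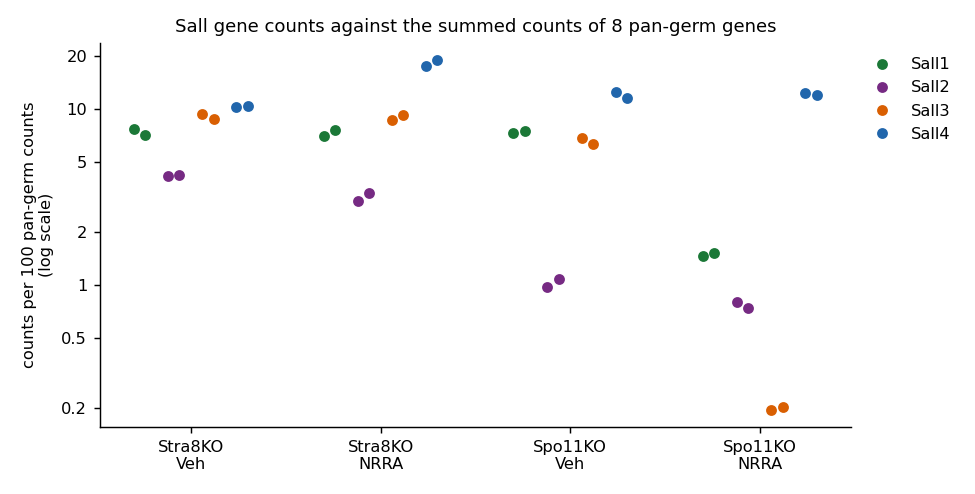
Counts of each Sall gene per 100 counts of the 8 pan-germ genes summed (vertical axis, log scale) in the 4 groups, with a point for each of 2 libraries. Sall1 lies between 6.98 and 7.67 in 3 groups and at 1.45 and 1.52 in Spo11KO NRRA, whereas Sall4 is highest in Stra8KO NRRA, at 17.4 and 18.9.

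The NuRD complex is the partner shared by the family, and its 15 listed subunits were all tested. In Stra8KO, NRRA changed 11 of 15, 2 higher and 9 lower, with a median log2 fold change of -0.13 against 0.01 over all tested genes, of which 41.9% were called. In the cultures labelled Spo11KO it changed 10 of 15 (49.9% of all genes were called), 4 higher and 6 lower, with a median of -0.08, and this became 6 higher and 5 lower with total counts and 1 higher and 11 lower with the pan-germ scaling. The interaction was called for 10 of 15, 5 in each direction, against 25.1% of all genes. Chd5, the helicase paralog with neuronal and testicular expression, had the interaction of largest size, at 1.51 (SE 0.102, adjusted p = 4.5e-17), and rose 3.65-fold in Stra8KO against 1.28-fold in the other genotype. Chd4, the principal NuRD helicase, had an interaction of 0.88 (SE 0.0475, adjusted p = 9.71e-21). It had 1614.4 and 1603.7 CPM in Spo11KO Veh, 724 and 747 CPM in Spo11KO NRRA, and 819 to 978 CPM in the 4 Stra8KO libraries. Like Sall1, Chd4 was therefore highest in Spo11KO Veh and lowest after NRRA in that genotype. The deacetylase Hdac2 had an interaction of -0.52 (SE 0.0595, adjusted p = 9.28e-10), and the histone chaperone Rbbp7 had 0.44 (SE 0.0583, adjusted p = 4.06e-08).

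Of 8 listed genes that work with SALL4 or lie downstream of it in germ or pluripotent cells, 7 were tested, as Nanog had only 26 counts over all libraries. In Stra8KO, NRRA raised all 7 tested, with a median of 0.67, where 41.9% of all genes were called, and 5 of 7 with the pan-germ scaling. In the cultures labelled Spo11KO it raised 3 and lowered 3, or 1 and 4 with that scaling, where 49.9% of all genes were called. The interaction was called for 6 of 7, 5 higher and 1 lower, against 25.1% of all genes. Gfra1, the GDNF receptor of undifferentiated spermatogonia, rose 1.74-fold in Stra8KO (adjusted p = 4.95e-19) and fell to 0.278-fold in Spo11KO (adjusted p = 2.05e-33), an interaction of 2.65 (SE 0.0718, adjusted p = 9.68e-33). Zbtb16, which encodes PLZF, had an interaction of 1.63 (SE 0.0592, adjusted p = 2.21e-27), with 119 and 117 CPM in Stra8KO Veh, 181 and 173 CPM in Stra8KO NRRA, 269.7 and 276 CPM in Spo11KO Veh, and 135 and 130.2 CPM in Spo11KO NRRA. Pou5f1, the pluripotency factor OCT4, had an interaction of 1.6 (SE 0.113, adjusted p = 2.26e-16). Kit, the receptor of differentiating spermatogonia, went the other way in the interaction (-0.87, SE 0.132, adjusted p = 7.44e-07), although it rose 34.1-fold in Stra8KO and 62.4-fold in Spo11KO. Sall4 thus rose with NRRA in both genotypes under TMM scaling, as did the 3 listed genes raised in Spo11KO, Kit among them. Its rise in Spo11KO was only 1.15-fold, against 62.4-fold for Kit, and was not called with the pan-germ scaling (0.02). Gfra1, Zbtb16 and Pou5f1 fell in the cultures labelled Spo11KO, as Sall1 did. In the interaction, Sall4 (0.85) had the sign of Gfra1, Zbtb16 and Pou5f1, opposite to that of Kit.

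The nearest annotated protein-coding genes on each side of each Sall locus were read for whether they moved with it. Sall3 lies on chromosome 18 (80966376 to 80986771, minus strand), followed at lower coordinates by Atp9b, a phospholipid flippase gene, and Nfatc1, a calcium-regulated transcription factor gene. These lie 32316 and 253305 bases from Sall3. Sall4 lies on chromosome 2 (168748332 to 168767943, minus strand), with the paralogs Atp9a and Nfatc2 in the same order, 5923 and 146675 bases away. Sall1 lies on chromosome 8 (89027235 to 89044162) and Sall2 on chromosome 14 (52311172 to 52328762), both on the minus strand. Coordinates are those of GRCm38.

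Atp9b had 98.1 and 95.4 CPM in Stra8KO Veh, 77.0 and 74.2 CPM in Stra8KO NRRA, 78.4 and 77.9 CPM in Spo11KO Veh, and 49.2 and 46.7 CPM in Spo11KO NRRA. It fell with NRRA in both genotypes (-0.36, adjusted p = 7.43e-08, and -0.71, adjusted p = 2.18e-16). Nfatc1 fell in the cultures labelled Spo11KO (-0.74, SE 0.0984, adjusted p = 1.14e-08) and was not called in Stra8KO (adjusted p = 0.0781). Both neighbours of Sall3 were thus lowest in Spo11KO NRRA, as Sall3 was, with smaller changes, and their interactions were 0.35 (adjusted p = 0.000182) and 0.54 (adjusted p = 0.0014). In Veh they differed from Sall3 under TMM scaling. Atp9b (0.31, adjusted p = 6.29e-07) and Nfatc1 (0.48, adjusted p = 7.42e-06) were higher in Stra8KO, whereas Sall3 had -0.59.

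Beside Sall4, Atp9a rose with NRRA in both genotypes (0.50, adjusted p = 5.17e-13, and 0.41, adjusted p = 6.35e-11). Nfatc2 had 25.9 and 26.3 CPM in Stra8KO Veh, 23.6 and 23.7 CPM in Stra8KO NRRA, 60.7 and 63.0 CPM in Spo11KO Veh, and 25.5 and 23.2 CPM in Spo11KO NRRA. It fell with NRRA in the cultures labelled Spo11KO (-1.34, SE 0.0661, adjusted p = 3.54e-23). Sall4 had 0.20 there, but only 0.02 with the pan-germ scaling. The interaction of Nfatc2, 1.2 (SE 0.102, adjusted p = 1.05e-13), had the same sign as that of Sall4 (0.85). The antisense Gm14261 rose in Stra8KO (1.47, SE 0.207, adjusted p = 5.19e-08) and was not called in Spo11KO (adjusted p = 0.258), with an interaction of 1.26 (adjusted p = 0.000132). Zfp64, at higher coordinates than Sall4 and 125388 bases away, was not called in the interaction (-0.05, adjusted p = 0.773).

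**Figure D5:**
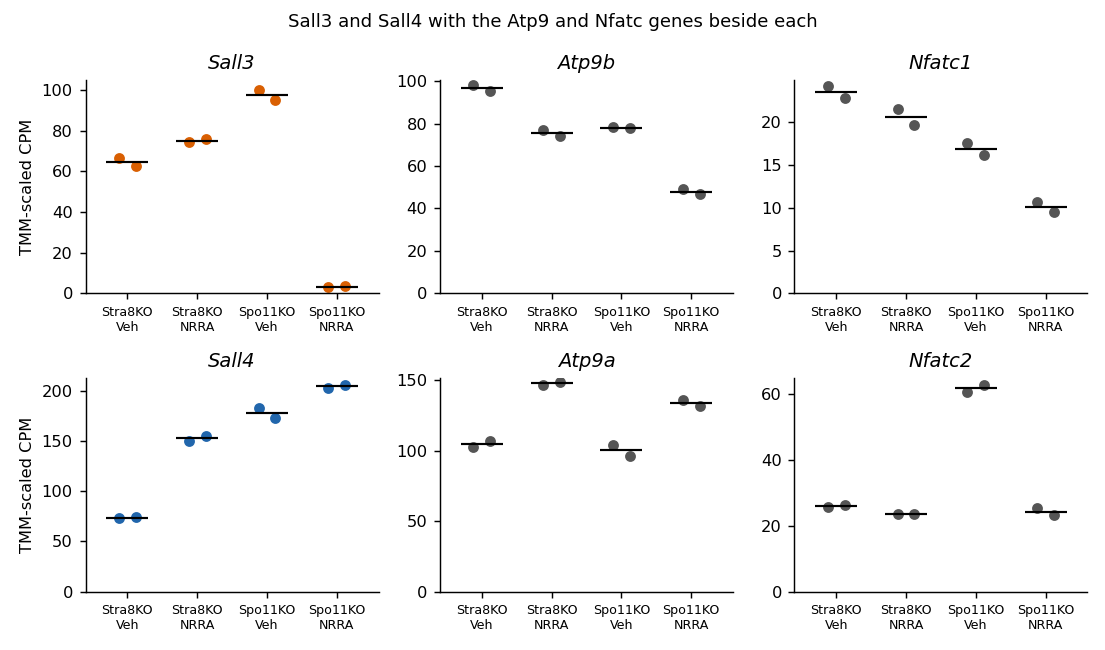
TMM-scaled CPM (vertical axes, from 0) of Sall3 with Atp9b and Nfatc1, and of Sall4 with Atp9a and Nfatc2, in the 4 groups, with a point for each of 2 libraries and a line at the mean. Nfatc2, 146675 bases from Sall4, is high in Spo11KO Veh only, at 60.7 and 63.0 CPM, while Sall4 is lowest in Stra8KO Veh.

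Farther genes moved in other ways. Mbp, known for its myelin protein, was the next expressed protein-coding gene at higher coordinates than Sall3, 1488375 bases away. It had 3.09 and 3.88 CPM in Stra8KO Veh, 19.5 and 20 CPM in Stra8KO NRRA, and 3.05 to 4.44 CPM in the 4 libraries labelled Spo11KO. Its interaction was 2.30 (SE 0.234, adjusted p = 2.94e-11). On the lower side of Sall1 lie the deubiquitinase gene Cyld, 275290 bases away, and the innate immune receptor gene Nod2, 338761 bases away. Cyld had an interaction of -0.52 (adjusted p = 1.28e-05) and Nod2 one of -1.03 (adjusted p = 0.0117), both opposite in sign to Sall1. Tox3, at higher coordinates than Sall1 and 1202878 bases away, was not called in the interaction (adjusted p = 0.994). The call of Nod2 was lost without Spo11KO NRRA replicate 1 (-0.69, adjusted p = 0.178). Near Sall2, Mettl3 and Tox4 were called with NRRA in neither genotype (adjusted p = 0.637 and 0.953 in Stra8KO, 0.21 and 0.537 in Spo11KO).

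The genes whose log2 CPM tracked each member most closely over the 8 libraries were picked by Pearson's r, as a description with no test, since the libraries form 4 groups. For Sall1 these were Map7d3 (r = 0.9976), Slc15a1 (r = 0.9966) and the forkhead gene Foxf1 (r = 0.9929), out of 4416 genes compared. Foxf1 had 24.0 to 34.8 CPM in the 4 Stra8KO libraries, 72.9 and 61.4 CPM in Spo11KO Veh, and 9.57 and 9.31 CPM in Spo11KO NRRA. For Sall3 they were Cd93 (r = 0.9968), Cyth4 (r = 0.9897) and Adgrg1 (r = 0.9893), out of 638 genes with at least 50% of its range. Cd93 had 8.05 to 10.4 CPM in the 6 libraries other than Spo11KO NRRA, and 1.27 and 1.23 CPM there, so its drop was smaller than that of Sall3.

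For Sall4 the closest genes were Dmrt1 (r = 0.9977), a transcription factor of spermatogonia, Cdh15 (r = 0.9948) and Eml4 (r = 0.9921), out of 7201. Dmrt1 had 144 and 139.8 CPM in Stra8KO Veh, 255 and 251 CPM in Stra8KO NRRA, 294 and 292 CPM in Spo11KO Veh, and 312 and 327 CPM in Spo11KO NRRA, the same order of groups as Sall4. Its interaction was 0.71 (SE 0.0551). Both are descriptions here, since Dmrt1 was picked for its likeness to Sall4 over these libraries. For Sall2 they were Ufm1 (r = 0.9993), the homeobox gene Hoxc6 (r = 0.9987) and the ephrin ligand gene Efnb2 (r = 0.9961), out of 8465. Hoxc6 had 64.1 to 75.4 CPM in the Stra8KO libraries and 29.0 to 36.2 CPM in those labelled Spo11KO. Between members themselves, r over the 8 libraries was 0.903 for Sall1 and Sall3, 0.607 for Sall2 and Sall3, and 0.215 for Sall1 and Sall2. With Sall4 it was -0.118 for Sall1, -0.451 for Sall3 and -0.823 for Sall2.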

How the data were processed

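Per the labels and the study's methods, stranded poly(A) RNA-seq reads were processed by the authors with bcl2fastq, STAR 2.6.1c and featureCounts 1.6.4 on mm10. The deposited table holds unnormalized counts per gene. The gene annotation release and the strand setting are not given in the sources used here. GENCODE M21 models held 99.52% of its gene IDs and gave lengths and positions.

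Genes were kept by edgeR's filterByExpr (99.88% of counts), scaled by TMM and tested with edgeR 4.0.16 (glmQLFit, robust, and glmQLFTest, two-sided) over all 8 libraries by group, called at an adjusted p under 0.05. The SE is the log2 fold change over the square root of F. log2 CPM used a prior count of 2. The fit was tested on simulated counts. The members, gene lists and comparisons were chosen with earlier results of these data known. Named genes were the members, the deleted genes, up to 4 genes of each list by size of interaction, the nearest neighbours, and 3 genes per member of most similar pattern. Sertoli and macrophage genes took 0.00191 to 0.0047% and 0.00379 to 0.00645% of counts. Libraries of a group differed by more than sampling noise. Alternatives were DESeq2 1.42.0 size factors and Wald test, total counts, pan-germ scaling, 2 other filters, only the groups compared, a replicate block, and leaving out each library. One coding sequence is not reported here.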

Additional observations from a re-analysis of the deposited data

Results flagged for a closer look

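The NRRA effect differed between the genotypes, by the test of the interaction in edgeR, for Sall1 (2.34) and Sall4 (0.85). Each value is on the log2 scale as Stra8KO minus Spo11KO. It differed for 10 of 15 NuRD subunits, the 4 largest in size being Chd5 (1.51), Chd4 (0.88), Hdac2 (-0.52) and Rbbp7 (0.44). Of the SALL4-linked genes, 6 of 7 tested were called. The 4 largest in size were Gfra1 (2.65), Zbtb16 (1.63), Pou5f1 (1.6) and Kit (-0.87). Dmrt1 (0.71), also called, was named for its likeness to Sall4. The NRRA effect also differed for some of the nearest annotated genes around the Sall loci, namely Cyld (-0.52), Nod2 (-1.03), Atp9b (0.35), Nfatc1 (0.54), Mbp (2.30), Gm14261 (1.26) and Nfatc2 (1.2). Apart from the overlapping Gm14261, these lay from 32316 bases (Atp9b) to 1488375 bases (Mbp) away. The interaction was not called for the neighbours Tox3, Mettl3, Tox4, Atp9a and Zfp64. With 25.1% of all tested genes called in this comparison, a called interaction was common in these libraries.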

How the results depend on the processing

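Sall1 and Sall4 kept their interaction, and Sall1 its fall with NRRA in Spo11KO, in direction and call under every alternative run. With the pan-germ scaling, the NRRA effect in Stra8KO was -0.03 for Sall1, -0.40 for Sall2 and -0.02 for Sall3, and that in Spo11KO was 0.02 for Sall4 and -0.06 for Dmrt1 (0.13 with TMM). The median of all genes moved to -0.22 and -0.17 in these comparisons. The genotype difference under that scaling was 0.0 for Sall1 and 0.46 for Sall3 in Veh and 0.58 for Sall4 in NRRA, where it moved the median of all genes to 1.06 in both treatments (against -0.11 and -0.14 with total counts) and the higher share of calls from 50.7 to 98.2% in Veh. It also took that share from 51.7 to 22.3% for NRRA in Stra8KO, 49.0 to 27.8% in Spo11KO, 54.8 to 96.7% between genotypes in NRRA and 59.0 to 47.7% in the interaction, and total counts gave 61.7% in Spo11KO, 39.5% between genotypes in NRRA and 38.7% in the interaction. The NRRA effect on Sall2 in Spo11KO lost its call at -0.13 with total counts, -0.18 with no filter, -0.23 with only the groups compared and -0.22 with the DESeq2 Wald test, and the interaction of Sall2 was -0.03 with total counts. Leaving out each library, with the lone library of a group taken to vary like the other groups, gave 0.16 to 0.26 for Sall1 under NRRA in Stra8KO, -0.32 to -0.14 for Sall2 under NRRA in Spo11KO and -0.03 to 0.16 for the interaction of Sall2. The cause of these changes was not tested. The alternatives for named genes other than the Sall family were chosen after seeing the data. Same-numbered libraries did not deviate together (correlations -0.0271 to 0.0558), and a fit with the replicate block gave 2.34 for the interaction of Sall1 and changed no call of a Sall gene. A group of 2 libraries gives little hold on the spread of 1 gene, which was shared over all genes.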
